A study of Mus musculus with 16 samples.

Results

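The ETS family of transcription factors was examined in primary hippocampal neurons grown with lipoproteins of the 3 human apoE isoforms. The 10 members are Elk1, Elk3, Elk4, Elf1, Elf2, Elf4, Ets1, Ets2, Fli1 and Gabpa, out of 48397 gene symbols that were counted, and they were found by their symbols. They were chosen by hand with earlier results of these libraries known, namely the log2 fold changes by treatment and among them the higher Elk4 and Elf4 counts with apoE4, so their values by treatment are given as a description and carry no test. All 10 passed the filter on low counts that left 17038 genes, Elf4 only through its apoE4 libraries, and 16 further ETS genes were looked up beside them. RNA was sequenced from 16 cultures, 4 for each of 4 treatments. All cultures were wild type CD1 mouse neurons from pups at P0 to P2, were given the antimitotic AraC at 3 DIV (days in vitro), received 10-fold concentrated astrocyte medium at 10 and 13 DIV, and were collected at 17 DIV. Control neurons received medium of Apoe-/- astrocytes, and the other groups received medium with apoE2, apoE3 or apoE4 lipoproteins, made by immortalized astrocytes of mice in which the human APOE gene replaced the mouse gene. Each isoform came from an immortalized line of its own, so isoform and astrocyte line cannot be told apart.

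ETS proteins share a winged helix-turn-helix DNA-binding domain, the ETS domain, that reads a short GGAA core. Elk1, Elk3 and Elk4 are the ternary complex factors, which sit on DNA together with serum response factor (SRF) and are phosphorylated by the MAP kinases ERK, JNK and p38, so that in neurons they link synaptic and growth factor signals to immediate early genes such as Fos, Egr1 and Arc. Ets1, Ets2 and Fli1 are better known from blood, immune and vascular cells, Elf1, Elf2 and Elf4 form a separate branch, and Gabpa is the DNA-binding subunit of GABP, which acts on genes for mitochondrial proteins.

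The libraries held 14087723 to 34248172 counts on genes, with a median of 22221832, and levels are given as CPM, counts per 1000000 counts, on library sizes scaled by edgeR's TMM method. Reads that fell on no single gene made up 38.4 to 73.7% of a library, and the median library of a group stood at 57.5% (control), 56.7% (apoE2), 61.1% (apoE3) and 64.3% (apoE4). Between 0.359 and 15.02% of the gene counts came from Lars2, a gene with a ribosomal repeat in its locus. All 10 neuronal markers were present in every library, with summed levels of 3078 to 8310 CPM. The 8 astrocyte markers were present too, at 529 to 2595 CPM together in the control, 748 to 2635 in the apoE2, 817 to 6121 in the apoE3 and 715 to 4807 CPM in the apoE4 libraries. Of the 69 markers of 7 lists, 0 were at 0 in all libraries and 6 were at 0 in 1 to 3 libraries, all of microglia, endothelial or mural cells. In RNA of whole cultures, fewer cells of a type and less RNA per cell cannot be told apart.

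Compared per kilobase of exon, Ets2 was the most abundant member in control neurons at 13.1 ± 2.67 CPM per kb (SD, n = 4), followed by Elk1 at 6.52 ± 1.78, Gabpa at 4.66 ± 0.464, Elk4 at 4.11 ± 0.669 and Elf2 at 3.96 ± 0.522 CPM per kb. From Elk1 to Elf2 each mean ± SD overlapped that of its neighbour in this order, while that of Ets2 stood apart from Elk1. Elk3 was lower at 1.22 ± 0.446 CPM per kb, and its spread met that of Elf1 at 0.628 ± 0.284, which in turn met that of Ets1 at 0.393 ± 0.278 CPM per kb. Fli1 and Elf4 were close to the limit of detection at 0.0715 ± 0.0265 and 0.0246 ± 0.0300 CPM per kb. With apoE4 the order changed at its top, where Elk4 at 14.7 ± 4.77 CPM per kb overlapped Ets2 at 12.9 ± 2.70 CPM per kb, and Elf4 at 0.513 ± 0.293 CPM per kb lay above Fli1 at 0.120 ± 0.0984 CPM per kb.

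**Figure D1:**
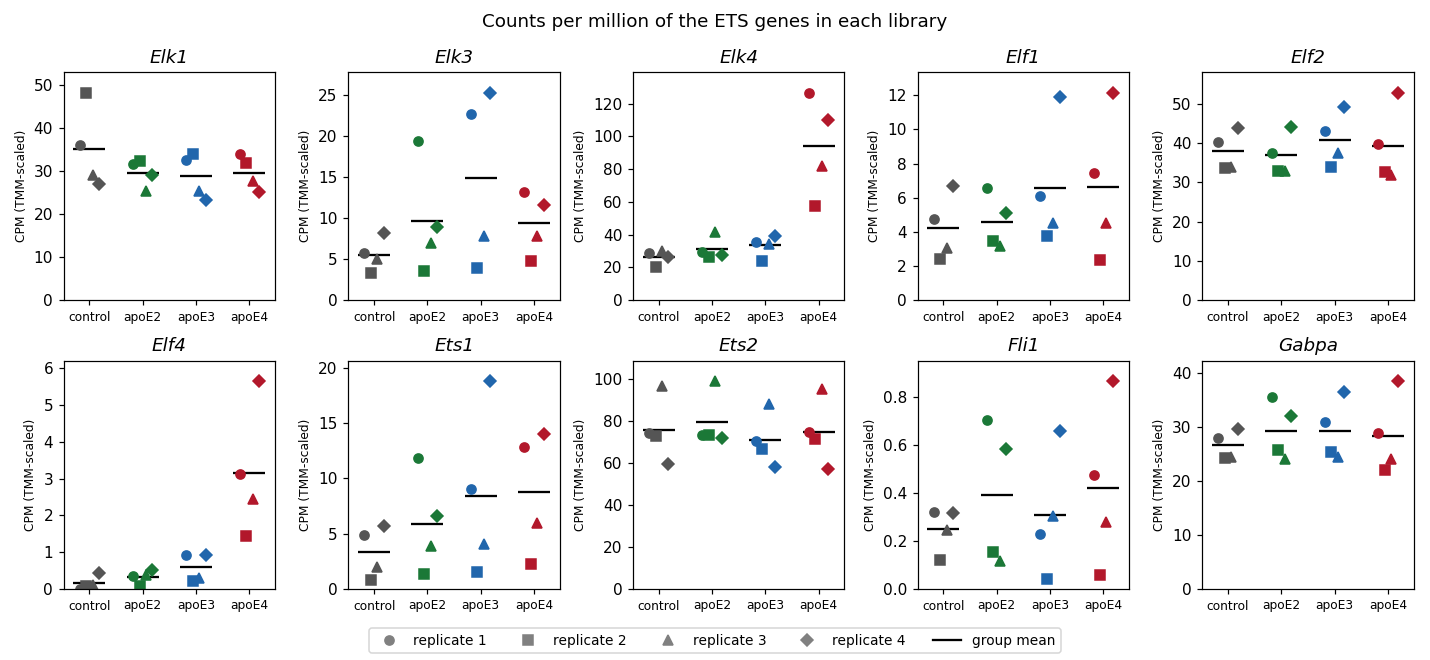
TMM-scaled CPM (vertical axes, each from 0) of the 10 ETS genes in control, apoE2, apoE3 and apoE4 neurons, with 1 point per library, a marker shape per replicate number and a bar at the mean of the 4 libraries. In Elk4 and Elf4 the 4 apoE4 libraries lie above all 12 others, and in Elk3, Ets1, Elf1 and Fli1 replicate 2 is low in most groups and replicates 1 and 4 are high in most.

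Elk4, the ternary complex factor also called SAP1, was the abundant one of the 10 members whose 4 apoE4 libraries lay above all 12 others. Control neurons held 28.7, 20.3, 29.9 and 26.4 CPM in replicates 1 to 4, apoE2 neurons 29.2, 26.6, 41.8 and 27.6 CPM, and apoE3 neurons 35.7, 24.1, 34.3 and 39.3 CPM. ApoE4 neurons held 127, 57.6, 81.9 and 110.2 CPM. The lowest apoE4 library was thus above the highest of the other 12, which was apoE2 replicate 3. The apoE2 and apoE3 libraries overlapped the control, although each was above the control library of its own number. The fitted log2 fold change against control was 1.84 (standard error, SE, 0.24) with apoE4, 0.25 (SE 0.23) with apoE2 and 0.34 (SE 0.23) with apoE3. Within a replicate number the ratio of apoE4 to control CPM was 4.42, 2.84, 2.73 and 4.17 for numbers 1 to 4. The ratio was 1.02, 1.31, 1.40 and 1.04 with apoE2 and 1.25, 1.19, 1.14 and 1.49 with apoE3. With the replicate number as a block the log2 fold change was 1.81, 0.26 and 0.33 with apoE4, apoE2 and apoE3, each with an SE of 0.15. The share of reads on no single gene was 73.1, 38.6, 65.0 and 63.5% in the 4 apoE4 libraries and the share of Lars2 12.2, 0.359, 8.13 and 9.82%, so that both were lowest in replicate 2, as Elk4 was. ApoE2 replicate 1 and apoE3 replicate 1 had similar shares to apoE4 replicate 1, at 73.7 and 71.6% on no single gene and 15.02 and 12.5% on Lars2, and held Elk4 at 29.2 and 35.7 CPM. The part of these shares in the spread of Elk4 among the apoE4 libraries was not tested. Leaving out any 1 library of these groups kept the apoE4 log2 fold change between 1.66 and 2.01.

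Elf4, also called MEF and best known from T cells and natural killer cells, was the other member whose 4 apoE4 libraries lay above all 12 others, at counts that were close to 0 elsewhere. Control libraries held 0, 2, 3 and 8 counts, apoE2 libraries 5, 2, 10 and 20, and apoE3 libraries 12, 5, 8 and 14 counts, while apoE4 libraries held 46, 50, 44 and 111 counts. The count of 0 in control replicate 1 allows a level of up to 0.136 CPM, a limit of 3 counts that covers counting error only. The apoE4 libraries stood at 3.12, 1.43, 2.44 and 5.65 CPM, and the highest library of the other groups, apoE3 replicate 4, at 0.919 CPM. The apoE2 and apoE3 libraries overlapped the control, although each apoE3 library was above the control library of its own number. The log2 fold change against control was 4.40 (SE 0.82) with apoE4, 1.19 (SE 0.83) with apoE2 and 1.93 (SE 0.83) with apoE3, and it rests on 13 counts over the control group. Without control replicate 4, which held 8 of those 13, the values were 5.49, 2.28 and 3.01. With the replicate number as a block they were 4.42 (SE 0.44), 1.16 (SE 0.55) and 1.92 (SE 0.53). Of all tested genes, 0.382% had their 4 apoE4 libraries above all 12 others, and the list of members was drawn up with that order in Elk4 and Elf4 known.

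The stretches of DNA around the start sites of these members are shown since Elk4 and Elf4 were both highest with apoE4, and Gabpa since it held the other motif match. RefSeq (build GRCm38.p6, the patched form of mm10) gave 13 sequences of 300 bases, 250 before and 50 after a start site, for 8 members, and Ets1 and Fli1 had no entry. Both strands were searched for the ETS motif CCGGAAGT and for its shorter part CCGGAA, with which every CCGGAAGT overlaps, and for the CArG box of SRF. Capitals mark a match. The sequence before Elk4 lies at chr1:132007370-132007669 on the plus strand, that before Elf4 at chrX:48463083-48463382 on the minus strand and that before Gabpa at chr16:84834874-84835173 on the plus strand.
Elk4: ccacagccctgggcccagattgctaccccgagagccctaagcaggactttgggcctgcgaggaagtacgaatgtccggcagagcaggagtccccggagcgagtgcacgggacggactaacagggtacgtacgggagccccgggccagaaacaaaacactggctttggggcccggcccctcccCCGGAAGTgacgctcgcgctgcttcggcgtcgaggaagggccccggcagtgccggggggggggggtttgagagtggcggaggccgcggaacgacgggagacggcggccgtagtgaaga
Elf4: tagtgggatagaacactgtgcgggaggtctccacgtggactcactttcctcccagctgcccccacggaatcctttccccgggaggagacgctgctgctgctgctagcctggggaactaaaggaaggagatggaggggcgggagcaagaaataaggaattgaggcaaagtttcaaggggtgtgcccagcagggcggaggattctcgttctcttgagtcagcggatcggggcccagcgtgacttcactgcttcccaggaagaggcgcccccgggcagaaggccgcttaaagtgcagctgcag
Gabpa: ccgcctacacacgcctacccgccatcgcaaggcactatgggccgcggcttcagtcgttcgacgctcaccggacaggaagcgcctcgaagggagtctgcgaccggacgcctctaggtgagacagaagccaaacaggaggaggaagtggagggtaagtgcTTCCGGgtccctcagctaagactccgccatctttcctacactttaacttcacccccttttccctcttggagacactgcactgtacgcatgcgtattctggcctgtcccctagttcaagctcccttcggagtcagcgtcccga
The first Elk4 start site had 1 CCGGAAGT on the sense strand, whose first base lies 68 bases before the start. Gabpa had 1 CCGGAA on the opposite strand, which reads TTCCGG in the printed sequence and starts 92 bases before the start site. The other 11 sequences, 2 of Elk4 and 2 of Elf4 among them, held neither of these letters in this window, and 0 of the 13 held a CArG box. Over the 32851 promoters of this length, 3.89% held CCGGAAGT, 14.9% held CCGGAA and 1.63% held a CArG box.

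The counts of Elk4 share their locus with other genes. Elk4 lies on chromosome 1 at 132007607 to 132032612 (mm10, plus strand), and Mfsd4a, a transporter-like gene of the major facilitator superfamily, lies on the opposite strand at 132022806 to 132068062, so that the 3′ ends overlap. In the annotation 2.93% of the exon bases of Elk4 lie over exons of other genes, which are Mfsd4a and Gm29103, a gene on the same strand as Elk4. Mfsd4a held 17.5, 14.8, 18.4 and 17.9 CPM in control replicates 1 to 4 and 81.5, 35.9, 49.8 and 70.7 CPM in the apoE4 libraries. The apoE2 libraries held 15.1 to 27.0 CPM and the apoE3 libraries 13.6 to 21.3 CPM, which both overlap the control. Over the 16 libraries the log2 CPM of Mfsd4a followed that of Elk4 with a Pearson r of 0.986, the highest of all tested genes, and the ratio of Mfsd4a to Elk4 counts was 0.609 ± 0.0570 (SD over 16 libraries). Its mean was 0.657 ± 0.0560 in the control and 0.629 ± 0.0165 in the apoE4 libraries (SD, n = 4). The log2 fold change of Mfsd4a with apoE4 was 1.79 (SE 0.25). Whether the counting used the strand is not stated, so reads of Elk4 and Mfsd4a at their overlap cannot be told apart. The nearest protein-coding gene on either side of each member was looked up, leaving out symbols that start with Gm. Of the 19 of these that were tested, Mfsd4a was the only one that is not a member and that had an adjusted p under 0.05 with apoE4 (edgeR's quasi-likelihood test, adjusted p = 0.00754, or 9.24e-05 with the replicate number as a block). Of all tested genes 0.194% were called without the block and 3.3% with it. Elk4 was chosen with its apoE4 counts known and Mfsd4a followed it, so nothing is read from this call.

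**Figure D2:**
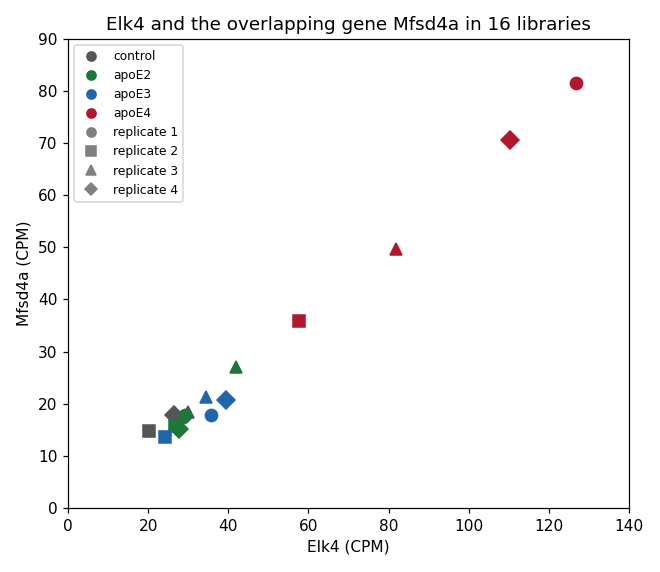
CPM of Mfsd4a (vertical axis) against CPM of Elk4 (horizontal axis) in the 16 libraries, with colours for the treatment and marker shapes for the replicate number. The 4 apoE4 libraries, at 57.6 CPM of Elk4 and above, continue the line of the 12 others, and the ratio of the 2 genes' counts stayed between 0.497 and 0.728.

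Elk3, the ternary complex factor also called NET and known as a repressor until it is phosphorylated, was higher on average with each isoform, but by amounts that differed between replicate numbers. Control neurons held 5.77, 3.30, 4.96 and 8.17 CPM, apoE2 neurons 19.4, 3.52, 6.93 and 8.93 CPM, and apoE3 neurons 22.7, 3.94, 7.77 and 25.3 CPM. ApoE4 neurons held 13.2, 4.82, 7.86 and 11.6 CPM. Every group overlapped the control, although each treated library was above the control library of its own number. Replicate 2 was the lowest of each group, and the apoE3 libraries of replicates 1 and 4 were the highest of all. The log2 fold change was 1.42 (SE 0.59) with apoE3, 0.80 (SE 0.58) with apoE2 and 0.75 (SE 0.58) with apoE4. With the replicate number as a block it was 1.19, 0.63 and 0.72, each with an SE of 0.27. Within a number the apoE3 to control ratio was 3.93, 1.19, 1.57 and 3.10. Without apoE2 replicate 1 the apoE2 value was 0.22. Elk1, the third ternary complex factor, was slightly lower on average, at 35.1 ± 9.57 CPM in control, 29.5 ± 3.11 with apoE2, 28.7 ± 5.24 with apoE3 and 29.6 ± 4.02 CPM with apoE4 (SD, n = 4). All groups of Elk1 overlapped, although each apoE3 and apoE4 library was below the control library of its own number. The ratio to control within numbers 1 to 4 was 0.900, 0.704, 0.870 and 0.864 with apoE3 and 0.942, 0.660, 0.955 and 0.926 with apoE4. With the block the log2 fold change was -0.22, -0.28 and -0.23 with apoE2, apoE3 and apoE4, each with an SE of 0.10. The highest library of Elk1 was control replicate 2 at 48.2 CPM. Without that library the log2 fold change with apoE4 in the fit without a block moved from -0.24 (SE 0.18) to -0.05. The 3 ternary complex factors, which share their partner SRF, thus differed in the order of their group means.

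Ets1, the founding member of the family, had a higher mean with every isoform and a wide spread between replicate numbers. The control libraries held 4.91, 0.765, 1.95 and 5.71 CPM, the apoE2 libraries 11.8, 1.38, 3.83 and 6.59 CPM, and the apoE3 libraries 9.06, 1.56, 4.04 and 18.8 CPM. The apoE4 libraries held 12.8, 2.28, 5.92 and 14.04 CPM. Each group overlapped the control, yet every treated library was above the control library of its own number. The apoE4 to control ratio was 2.61, 2.98, 3.03 and 2.46 within numbers 1 to 4, and the log2 fold change was 1.40 (SE 0.83) with apoE4, 1.32 (SE 0.83) with apoE3 and 0.82 (SE 0.82) with apoE2. Without apoE3 replicate 4 the apoE3 value was 0.54, and without apoE2 replicate 1 the apoE2 value was 0.25. With the replicate number as a block the apoE4 value was 1.45 with an SE of 0.24, and the apoE3 value was 1.24 with the same SE.

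Some lists of non-neuronal markers also differed between the numbers, and the neuronal list did so the other way. The 10 neuronal markers summed to 4679.7 to 5766, 6922 to 7433, 7231 to 8310 and 3078 to 4836 CPM in numbers 1 to 4, lowest where Ets1 was highest. The 8 astrocyte markers summed to 1330.1 to 3877 CPM in number 1, 529 to 817 in number 2, 1402 to 2415 in number 3 and 2510.0 to 6121 CPM in number 4. Of the fibroblast and mural markers, 9 of 10 were tested and the sums were 139.8 to 248, 31.1 to 34.8, 33.8 to 59.8 and 197 to 543 CPM for numbers 1 to 4. The 13 microglial markers, all tested, summed to 56.3 to 99.7 CPM in number 4 and to 17.4 to 38.5 CPM in the other 3 numbers. The endothelial markers, of which 7 of 11 were tested, summed to 13.5 to 19.9 CPM over all libraries and did not separate the numbers. The 9 oligodendrocyte lineage markers summed to 435 to 866, 109 to 143, 187 to 265 and 340.1 to 814 CPM. Markers of dividing cells, 8 of 8 tested, summed to 8.37 to 19.7 CPM in the control, 21.0 to 30.8 with apoE2, 28.2 to 41.7 with apoE3 and 13.1 to 33.7 CPM with apoE4, so that the apoE2 and apoE3 libraries lay above the control and the apoE4 libraries overlapped it. By number they summed to 11.3 to 36.3, 8.37 to 41.7, 12.01 to 28.2 and 19.7 to 41.1 CPM, ranges that overlapped. Some of these markers were also called by treatment, in the fit with the replicate block only. With the replicate number as a block, edgeR called 8 of 8 astrocyte markers higher with apoE3 against control (median log2 fold change 0.79, beside 11.7% of all tested genes called), 4 of 9 of the oligodendrocyte lineage, 2 of 9 of fibroblasts and mural cells, 2 of 7 of endothelium and 1 of 8 of dividing cells. With apoE4 it called 4 of 8 astrocyte markers higher (median 0.62, beside 3.3% of all tested genes called) and 1 each of the oligodendrocyte, fibroblast and mural, and endothelial lists. Of the neuronal markers 1 of 10 was called higher and 2 lower with apoE3, and 0 with apoE4. Of the 13 microglial markers 0 were called with either isoform, and with apoE2 the only call was 1 of 8 markers of dividing cells. Without the block edgeR called 0 markers with any isoform, with 1, 3 and 2 at an unadjusted p under 0.05 for apoE2, apoE3 and apoE4 (2.79, 6.43 and 3.3% of all tested genes). The part of these cells in the values of Ets1, Elk3, Elf1 and the other members was not tested.

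Elf1 and Fli1 followed the same numbers as Ets1. Elf1, a regulator of T cell and blood genes, held 2.41 to 6.70 CPM in the control, 3.18 to 6.55 with apoE2, 3.77 to 11.9 with apoE3 and 2.37 to 12.2 CPM with apoE4, and these ranges overlapped. Within numbers 1 to 4 the apoE3 to control ratio of Elf1 was 1.29, 1.56, 1.46 and 1.77, and with the block its apoE3 log2 fold change was 0.61 (SE 0.22). Its highest libraries were replicate 4 with apoE3 and with apoE4, and without that library of the group the log2 fold change moved from 0.63 (SE 0.49) to 0.18 with apoE3 and from 0.65 (SE 0.49) to 0.17 with apoE4. Fli1, a factor of megakaryocytes and endothelium, had 22 to 40 counts over the 4 libraries of a group, between 0.0410 and 0.865 CPM per library. At that depth its log2 fold changes of 0.61, 0.26 and 0.70 with apoE2, apoE3 and apoE4 had SEs of 0.80 to 0.83, and a difference was not detectable.

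Gabpa, Elf2 and Ets2 had similar means in all 4 treatments. Gabpa held 26.5 ± 2.64 CPM in control and 29.2 ± 5.36, 29.2 ± 5.58 and 28.3 ± 7.33 CPM with apoE2, apoE3 and apoE4 in turn (SD, n = 4). Elf2, also called NERF, held 37.9 ± 4.99 CPM in control and 36.8 ± 5.30, 40.9 ± 6.70 and 39.3 ± 9.69 CPM with the isoforms in the same order. Ets2, a target of the Ras and MAP kinase pathway, held 75.9 ± 15.5 CPM in control and 79.6 ± 13.0, 71.0 ± 12.5 and 74.7 ± 15.6 CPM. Their 9 log2 fold changes against control lay between -0.10 and 0.14 with SEs of 0.17 to 0.19. Replicate 3 was the highest library of Ets2 in all 4 groups, at 96.9, 99.1, 88.1 and 95.2 CPM in control, apoE2, apoE3 and apoE4.

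**Figure D3:**
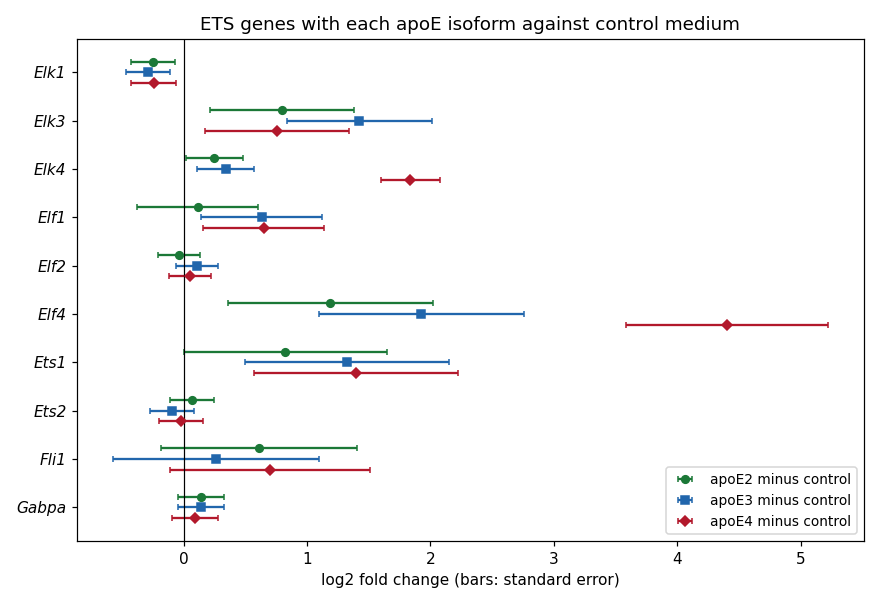
Log2 fold change of each ETS gene (horizontal axis) against control medium, with 1 point for each isoform and bars of 1 SE from edgeR's fit over the 16 libraries without a block. Elf4 at 4.40 and Elk4 at 1.84 with apoE4 stand to the right of their apoE2 and apoE3 values, and the values of Elf2, Ets2 and Gabpa lie within 0.14 of 0.

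Counted over the members, 8 of 10 log2 fold changes were above 0 with apoE2, with apoE3 and with apoE4, where 52.3, 52.4 and 50.4% of all tested genes were. Elk1 was below 0 with all 3 isoforms, and the other value below 0 was that of Elf2 with apoE2 and of Ets2 with apoE3 and apoE4. The members' median log2 fold change was 0.19, 0.30 and 0.67 with apoE2, apoE3 and apoE4, beside 0.01, 0.02 and 0.00 over all tested genes. The 3 comparisons share the control libraries. At an adjusted p under 0.05 in edgeR's quasi-likelihood test, 0 of 10 members were called with apoE2 (0% of all tested genes), 0 with apoE3 (0.00587%) and 2 with apoE4 (0.194%). The members called with apoE4 were Elk4 and Elf4, and Elf4 passed the low-count filter only through its apoE4 libraries. Both calls were lost when only the 2 groups compared were fitted, and that of Elf4 was lost in 11 of 16 fits that left out 1 library, while its log2 fold change stayed between 3.96 and 5.49. DESeq2 called 0, 0 and 2 members, and at an unadjusted p under 0.05 edgeR counted 0, 2 and 2, where 2.79, 6.43 and 3.3% of all tested genes passed. With the replicate number as a block 0 of 10 were called with apoE2 (1.73% of genes), 3 with apoE3 (Elf4, Elk3 and Ets1, 11.7%) and 3 with apoE4 (Elf4, Elk4 and Ets1, 3.3%). At an unadjusted p under 0.05 the block counted 3, 6 and 6 members, where 13.3, 27.5 and 16.6% of all tested genes passed. Since the list was made with these contrasts known, nothing is read from the counts.

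Set against the other isoforms rather than the control, Elk4 was higher with apoE4 by a log2 fold change of 1.496 (SE 0.24) over apoE3 and 1.59 (SE 0.24) over apoE2. Within a number the apoE4 to apoE3 ratio of Elk4 was 3.55, 2.39, 2.39 and 2.80. Elf4 was higher with apoE4 by 2.48 (SE 0.73) over apoE3 and 3.22 (SE 0.74) over apoE2, with apoE4 to apoE3 ratios of 3.41, 6.95, 7.99 and 6.15. Elk3 stood the other way, at -0.67 (SE 0.58) for apoE4 against apoE3, with ratios of 0.582, 1.22, 1.01 and 0.458. Ets1 had a log2 fold change of 0.07 (SE 0.81) for apoE4 against apoE3, with ratios of 1.41, 1.46, 1.47 and 0.748 in numbers 1 to 4. The other 6 members lay between -0.06 and 0.44 in that comparison. As with the control, the calls between isoforms only describe genes chosen with these contrasts known, and nothing is read from them. Elk4 was the 1 member called between apoE4 and apoE3 (0.147% of tested genes) and between apoE4 and apoE2 (0.252%), and with the replicate block Elf4 joined it in both (1.76 and 4.44%). Between apoE3 and apoE2 edgeR called 0 members (0%), also at an unadjusted p under 0.05, DESeq2 called 0, and the block called 0 (1.31%). The log2 differences there lay between -0.35 for Fli1 and 0.74 for Elf4. The call of Elk4 between apoE4 and apoE3 was lost without apoE3 replicate 1, 2 or 3 or apoE4 replicate 1 or 4, and that between apoE4 and apoE2 without apoE2 replicate 1 or 4, each time to a count of 0, while its log2 fold change stayed at 1.32 to 1.67 and 1.41 to 1.76 without any 1 library of the groups compared.

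How the members vary between replicate numbers was not used to choose them and can be tested. In a model with treatment and replicate number, all 10 members differed between numbers at an adjusted p under 0.05 in edgeR's quasi-likelihood test, where 63.8% of all tested genes did. Elf4 was among the tested genes only through its apoE4 libraries. The adjusted p ranged from 4.46e-07 for Ets1 to 0.00958 for Elk4. Of the variance of log2 CPM, Elk4 had 84.0% between treatments and 9.84% between numbers, and Elf4 77.1 and 15.2%. Elk4 and Elf4 were chosen with their higher counts with apoE4 known, so nothing is read from their shares. In the other 8 members the larger share lay between numbers, from 65.1% in Elk1 to 88.6% in Ets2, and the medians over all tested genes were 14.4% between treatments and 56.1% between numbers. In 8 members numbers 1 and 4 held the highest means, as in Ets1 at 9.66, 1.49, 3.94 and 11.3 CPM in numbers 1 to 4. Ets2 peaked in number 3 at 94.8 CPM and Elk1 in number 2 at 36.5 CPM.

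**Figure D4:**
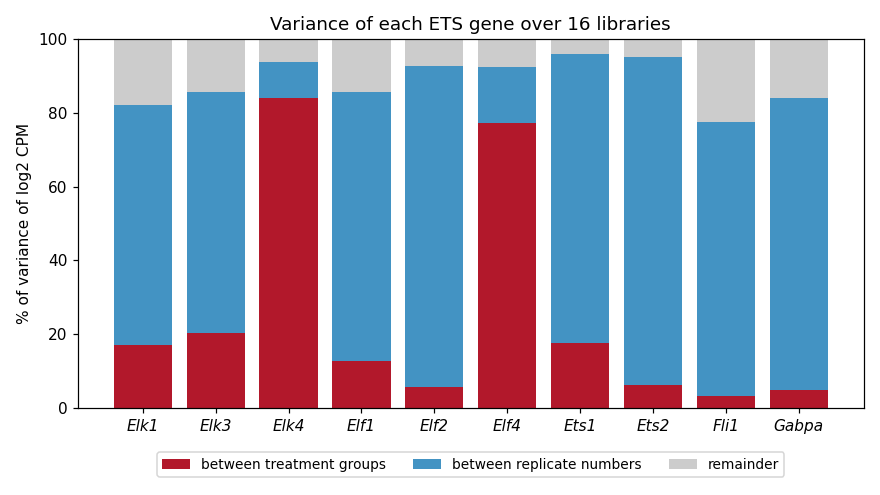
Share of the variance of log2 CPM over the 16 libraries (vertical axis, % of the total) that lay between the 4 treatments, between the 4 replicate numbers and in neither, for each ETS gene. Elk4 and Elf4 have 84.0 and 77.1% between treatments, and in the other 8 members the replicate number takes 65.1% or more. Elk4 and Elf4 were chosen with their higher counts with apoE4 known, so nothing is read from their shares.

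Members also moved with each other across the libraries, which is described here without a test because the libraries share replicate numbers and treatments. Over the 16 libraries the Pearson r of log2 CPM was 0.922 between Elk3 and Ets1, 0.893 between Elf1 and Ets1, 0.897 between Elf1 and Gabpa and 0.879 between Elk4 and Elf4. Elk4 and Elf4 were chosen with the higher counts of both with apoE4 known, so nothing is read from their r. Ets2 ran against Elf2 with an r of -0.706. Elk4 and Elk3, although of the same subfamily, had an r of 0.35.

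The genes whose log2 CPM was most like that of a member were named for the 3 members that the study lists among its transcription factors. After Mfsd4a, Elk4 was followed by Edem1, which acts in the disposal of misfolded glycoproteins of the endoplasmic reticulum, with an r of 0.967 over 16 libraries, and by Gm340 with 0.964. Edem1 had a mean of 25.1 CPM in control and 44.0 CPM with apoE4. Elf4 was most like AI506816 with 0.940, G3bp1, a stress granule protein, with 0.928 and Mlec, a lectin of the endoplasmic reticulum, with 0.924. AI506816 had means of 4.05, 4.85, 8.41 and 26.5 CPM in control, apoE2, apoE3 and apoE4 neurons. Elk3 was most like Akap12, a scaffold for protein kinase A, with 0.982, the chemokine Cxcl14 with 0.972 and Rhog, a small GTPase, with 0.971. Akap12 had its highest mean with apoE3, at 125 CPM against 42.0 CPM in control.

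Of the 16 other ETS genes, 8 had too few counts to be tested (Elf3, Elf5, Ehf, Fev, Etv2, Spdef, Spib and Spic). The 8 tested were the PEA3 group Etv1, Etv4 and Etv5, the repressors Etv3, Etv6 and Erf, the endothelial gene Erg and the myeloid gene Spi1. Without a block edgeR called 0 of the 8 with apoE2, apoE3 or apoE4, with 0, 1 and 1 at an unadjusted p under 0.05 (2.79, 6.43 and 3.3% of all tested genes). DESeq2 called Etv6 with apoE3. Etv6 held 9.55, 11.8, 6.46 and 11.3 CPM in control, 12.8, 11.2, 11.1 and 12.5 CPM with apoE2, 17.6, 15.99, 16.3 and 17.7 CPM with apoE3, and 17.9, 13.8, 12.5 and 13.5 CPM with apoE4. The apoE3 and apoE4 libraries of Etv6 lay above all control libraries, as did 1.4 and 1.34% of all tested genes in these comparisons. Its log2 fold change with apoE3 was 0.79 (SE 0.17, edgeR adjusted p = 0.335), and with the replicate block 0.81 (SE 0.14, edgeR adjusted p = 0.00239). With apoE4 it was 0.56 (SE 0.17, edgeR adjusted p = 0.582), and with the block 0.57 (SE 0.14, edgeR adjusted p = 0.0339). The block also called Etv3 higher with apoE4 than with apoE3, by 0.42 (SE 0.09, edgeR adjusted p = 0.0198). Among the others Etv5 was the most abundant by CPM, at 79.4 ± 32.9 in control and 83.1 ± 26.7 CPM with apoE4, Erf held 48.7 ± 10.4 and 47.5 ± 10.1 CPM, Etv1 21.8 ± 5.55 and 19.1 ± 8.54 CPM, and Etv4 8.04 ± 3.70 and 9.64 ± 4.44 CPM (SD, n = 4). Erg and Spi1 stayed under 2 CPM in every library.

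The partner genes through which ETS factors act passed the test in no comparison with control unless the replicate number was a block. Srf itself held 63.9 ± 3.64 CPM in control and 58.9 ± 8.75, 56.0 ± 7.07 and 56.0 ± 7.73 CPM with apoE2, apoE3 and apoE4 in turn (SD, n = 4). The rival SRF cofactors Mkl1 and Mkl2 had log2 fold changes of 0.01 (SE 0.24) and 0.10 (SE 0.34) with apoE4, and Med23, the Mediator subunit that Elk1 contacts, of -0.01 (SE 0.10). The coactivators Crebbp and Ep300 had values of 0.28 (SE 0.21) and 0.39 (SE 0.23). Myocd was not tested. Of the 8 partners tested edgeR called 0 without a block in each comparison with control, also at an unadjusted p under 0.05, and DESeq2 called 0. The block called Gabpb2, a partner subunit of Gabpa, which held 16.7, 8.57, 7.12 and 13.8 CPM in control and 23.9, 11.002, 13.5 and 23.5 CPM with apoE4. Its log2 fold change was 0.64 (SE 0.14, edgeR adjusted p = 0.0201 with the block, 1.00 without), and with the block it was also 0.89 over apoE3 (edgeR adjusted p = 0.00429) and 0.73 over apoE2 (edgeR adjusted p = 0.00789). Gabpb1 had -0.10 (SE 0.12) with apoE4.

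Genes on either side of the ternary complex factors were counted from lists written for them. Of 23 genes of the MAP kinase cascade, 13 immediate early and other targets of SRF with its ternary complex factors, and 8 mitochondrial targets of GABP, edgeR without a block called 0 with any isoform against control. At an unadjusted p under 0.05 it counted 1, 2 and 0 cascade genes, 0, 1 and 0 SRF targets and 0, 1 and 0 GABP targets with apoE2, apoE3 and apoE4, and DESeq2 called 0. Of all tested genes 2.79, 6.43 and 3.3% passed at that unadjusted p. The median log2 fold change with apoE4 was -0.05 for the cascade, 0.12 for the SRF targets and -0.04 for the GABP targets, beside 0.00 over all tested genes. With apoE3 these medians were -0.08, -0.34 and 0.07 beside 0.02, and with apoE2 -0.01, -0.01 and 0.04 beside 0.01. With the block the median of the SRF targets was 0.02 with apoE4 and -0.21 with apoE3. With the block 5 of 13 SRF targets were called with apoE3, against 11.7% of all tested genes, in both directions. Arc and Egr3, immediate early genes of synaptic activity, fell by 0.97 and 0.92 on the log2 scale (edgeR adjusted p = 0.00266 and 0.0107). Cyr61, Mcl1 and Junb rose by 1.16, 0.39 and 0.31 (edgeR adjusted p = 0.00935, 0.0318 and 0.0414). With apoE4, where Elk4 was highest, the block called 0 of 13 SRF targets against control, with 3 at an unadjusted p under 0.05 (16.6% of all tested genes), and Ier2, the one with the smallest p without the block, had 0.34 (SE 0.25), while Mcl1 had 0.26 (SE 0.23). Arc and Egr3 were higher with apoE4 than with apoE3 by 0.91 and 0.92 (edgeR adjusted p = 0.0105 and 0.0355 with the block).

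With the block 2 of 23 cascade genes were called with apoE2 (1.73% of all tested genes), 3 with apoE3 (11.7%) and 5 between apoE4 and apoE2 (4.44%). Rps6ka6, a ribosomal S6 kinase, was lower than control by log2 fold changes of -0.90 with apoE2 and -0.79 with apoE3 (edgeR adjusted p = 0.00700 and 0.00344), and higher with apoE4 than with apoE2 by 0.69 (edgeR adjusted p = 0.0119). Rps6ka5, also called MSK1, was lower with apoE2 by -0.57 (edgeR adjusted p = 0.0366). Rps6ka2 was lower with apoE3 by -0.31 (edgeR adjusted p = 0.0119), and with apoE4 it was above apoE3 by 0.39 and above apoE2 by 0.30 (edgeR adjusted p = 0.00981 and 0.0244). Nras, a Ras GTPase, was higher with apoE3 by 0.35 (edgeR adjusted p = 0.0387). Between apoE4 and apoE2 the block also called Rps6ka3 higher by 0.47 and Rps6ka4 and Hras lower, by -0.39 and -0.34 (edgeR adjusted p = 0.0356, 0.0236 and 0.0318). With apoE4 against control 0 of 23 cascade genes were called with the block, and 2 had an unadjusted p under 0.05 (16.6% of all tested genes). Without the block Nras and Sos1 had the smallest p there, with log2 fold changes of 0.35 (SE 0.22) and 0.23 (SE 0.14). Of the 8 GABP targets 0 were called in any comparison without or with the block, and with apoE4 Tfb2m and Polrmt, which act in mitochondrial transcription, had the smallest p, with log2 fold changes of -0.17 (SE 0.13) and 0.09 (SE 0.09).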

How the data were processed

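Total RNA of 16 cultures, 4 per treatment, was depleted of ribosomal RNA and sequenced. STAR alignment to mm10 and HTSeq counting per gene were done by the authors, who deposited raw counts. The annotation and strand setting are not given in the sources used here. The labels gave the group and the replicate number of each library. EdgeR 4.0.16 in R 4.3.3 was run with TMM scaling, filterByExpr (minimum count 10, total 15, proportion 0.7), 1 coefficient per group over 16 libraries and the quasi-likelihood test, with Benjamini-Hochberg adjustment over 17038 genes in each of 6 comparisons. The script was tested on simulated data. Rows that name no gene (38.4 to 73.7% of the reads in a library) stayed out of library sizes. Log2 CPM used a prior count of 2, and an SE is that of the fitted log2 fold change. Gene models come from GENCODE M21 on mm10.

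The members and lists were chosen with earlier results of these data known. The text names the 10 members, other tested ETS genes, partners, listed genes called in any comparison or with the 2 smallest p with apoE4, and the 3 genes most like Elk4, Elf4 and Elk3. Neighbouring genes and single libraries were named after their values were seen. Libraries of a replicate number deviated together from their group means (r of 0.362 to 0.552, 0.766 to 0.831, 0.620 to 0.671 and 0.681 to 0.790 for numbers 1 to 4), which comes from the data and not from the labels. Per the study, the 4 cultures of a group were independent. The labels give AraC in mmol/L and the study in μmol/L. Alternatives were DESeq2 1.42.0 and its size factors, no low-count filter, at least 1 CPM in 8 libraries, a replicate block, only the 2 groups compared, and each library left out.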

Additional observations from a re-analysis of the deposited data

Results flagged for a closer look

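Among the 40 groups of 4 libraries of the members, 2 held a library whose gap to its nearest neighbour took most of the group's range, where chance gives about 1 in 20. ApoE2 replicate 3 was the high library in both. In Elk4 it held 41.8 CPM against 26.6 to 29.2 CPM in the other apoE2 libraries, and the gap was 0.830 of the range. In Ets2 it held 99.1 CPM against 72.2 to 73.6 CPM, and the gap was 0.949 of the range. Replicate 3 was also the highest Ets2 library of the other 3 groups.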

How the results depend on the processing

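Of 463 recomputed log2 fold changes, of the 10 members against control and of Elk4 and Elf4 between apoE4 and the other isoforms, 460 moved by less than the spread between libraries and 3 moved by more. The 3 were those of Elf4 without control replicate 4, at 2.28, 3.01 and 5.49 with apoE2, apoE3 and apoE4. Of the 463, 14 had the other sign, all from leaving out 1 library and none of Elk1, Elk3, Elk4, Elf4 or Ets1. The lowest of them was Fli1 with apoE3, at -0.37 without apoE3 replicate 4 against 0.26. In the other comparisons between isoforms the block turned 3 signs, of Elf1 between apoE4 and apoE3 (0.02 to -0.06) and of Elk3 (-0.04 to 0.08) and Elk1 (0.00 to -0.01) between apoE4 and apoE2. Counts of calls depended more on the setting. With the replicate block the count of members called was 3 with apoE3 against control, 2 between apoE4 and apoE3 and 2 between apoE4 and apoE2, and the count of the 60 other listed genes, 0 in each comparison without it, came to 2, 9 and 2 against control (for apoE2, apoE3 and apoE4), 5 between apoE4 and apoE3 and 6 between apoE4 and apoE2, where 1.73, 11.7, 3.3, 1.76 and 4.44% of all tested genes were called. Beyond these counts, those of the cell type markers and those over all tested genes, the replicate block changed no count of calls at an adjusted p under 0.05 by over 1.5 times. At an unadjusted p under 0.05 the members' counts against control went from 0, 2 and 2 to 3, 6 and 6 (apoE2, apoE3 and apoE4). The shares of all tested genes went from 2.79, 6.43 and 3.3% to 13.3, 27.5 and 16.6%. With only the 2 groups compared in the fit, which leaves fewer libraries for the spread, 0 members were called with apoE4 against control, apoE3 or apoE2. The filter of 1 CPM in 8 libraries removed Elf4 and Fli1 and left 1 member called with apoE4. DESeq2 called 2 members between apoE4 and apoE2 and 1 other listed gene with apoE3. Leaving out 1 library gave 1 to 2 members with apoE4 against control, 0 to 1 between apoE4 and apoE3 and 0 to 1 between apoE4 and apoE2. The call of Elf4 with apoE4 was lost, leaving 1, without any of apoE2 replicates 1, 3 and 4, apoE3 replicates 1 and 3, apoE4 replicates 1, 3 and 4 and control replicates 1, 2 and 3. The cause was not tested. Depth limits Elf4 and Fli1, whose groups other than apoE4 for Elf4 held 13 to 40 counts, and the limit of 3 counts covers counting error only.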
